A study of Homo sapiens with 4 samples.

Results

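The 9 genes described here encode the laminin-binding side and the laminin side of epithelial attachment: the integrin subunits ITGA3, ITGA6, ITGB1 and ITGB4 with the tetraspanin CD151, and the laminin chains LAMA3, LAMA5, LAMB3 and LAMC1. They were chosen by symbol from the 61533 gene identifiers of a table of raw read counts, and each of the 9 symbols matched 1 identifier. The counts themselves were known when the genes were chosen, so the values of these 9 genes in the comparison of knockdown with control are given as a description, without p-values. Polyadenylated RNA came from Caki-1, an established human renal cell carcinoma line. Cells had received lentivirus with short hairpin RNA against TFE3 (shTFE3, 2 libraries, genotype label TFE3-KD) or with a control sequence (shControl, 2 libraries, genotype label WT). All 4 libraries came from cells that were replated 24 hours after infection and then kept in puromycin at 1 µg/ml for 3 days, starting 12 hours after replating. How many hairpins were used, and whether the 2 libraries of an arm came from separate infections, is not given in the sources used here, so the p-values reflect differences among these 4 libraries alone, which may be technical.

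Laminins are cross-shaped trimers of an alpha, a beta and a gamma chain that form the sheet of the basement membrane next to epithelial cells. The trimer LM332 contains LAMA3 and LAMB3, and laminin α5β1γ1 (LM511) is built from LAMA5, LAMB1 and LAMC1. Integrins are receptors of 1 alpha and 1 beta subunit. ITGA3 pairs with ITGB1, and ITGA6 pairs with ITGB1 or, in hemidesmosomes, with ITGB4, whose long cytoplasmic tail links to keratin filaments. CD151 binds these laminin-binding integrins at the cell surface. TFE3 belongs to the MiT/TFE family of transcription factors, which bind E-boxes of the form CACGTG, and is best known for lysosomal genes.

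Promoter sequences are shown as a description, because MiT/TFE factors recognise a short sequence. The motifs were chosen after the values were seen, and their relation to the fold changes was not tested. RefSeq windows on GRCh38.p14 were found for 6 of the 9 genes (10 windows, since some genes have several starts); ITGA3, ITGB4 and CD151 had none. The 250 bases before each start were searched on both strands for 3 motifs. These were CACGTG, a second form of E-box spelled CATGTG (read from the other strand as CACATG), and the AP-1 element, spelled TGANTCA. The motif CACGTG lay in 1 of the 10 windows, against 6.34% of all 35116 promoter windows, CATGTG in 1 (9.42% of all) and TGANTCA in 2 (6.57% of all). The window with CACGTG precedes the first start of ITGA6 (chr2:172427086-172427335, plus strand, outside annotated exons), where the motif, in capitals, begins 101 bases before the start. LAMA5 (chr20:62367313-62367562, minus strand, outside annotated exons), the one of the 4 laminin chains with the lowest ratio of knockdown to control, held none of the 3 motifs and is shown for contrast.
ITGA6 promoter: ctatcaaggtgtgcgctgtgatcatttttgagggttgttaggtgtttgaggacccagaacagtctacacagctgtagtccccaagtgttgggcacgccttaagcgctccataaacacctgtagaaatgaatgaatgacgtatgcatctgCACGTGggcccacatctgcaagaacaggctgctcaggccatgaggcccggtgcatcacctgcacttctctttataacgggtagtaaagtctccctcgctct
LAMA5 promoter: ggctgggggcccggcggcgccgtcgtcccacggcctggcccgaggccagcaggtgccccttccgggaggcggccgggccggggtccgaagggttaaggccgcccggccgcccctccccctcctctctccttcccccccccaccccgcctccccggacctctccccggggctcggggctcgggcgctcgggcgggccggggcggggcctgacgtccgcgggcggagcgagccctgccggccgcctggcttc

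The 2 windows with TGANTCA belonged to LAMA3 and to the third of 3 starts of LAMB3, both chains of LM332. The LAMA3 window precedes a start at 23873020, inside the gene, which begins at 23689443. The bases before that beginning were not searched. The third LAMB3 start, at 209651374, also lies inside its gene, which begins at 209652466 on the minus strand. The other LAMB3 windows held no match. LAMA3 was lower and LAMB3 higher in shTFE3. Stretches of 30 bases around the matches, in capitals, are shown. The first LAMA3 stretch (chr18:23872886-23872915, plus strand) holds TGANTCA and CATGTG, which share 2 bases, and the second (chr18:23872940-23872969, plus strand) holds TGANTCA 69 bases before the start. Both LAMA3 stretches lie wholly inside annotated exons. The LAMB3 stretch (chr1:209651423-209651452, minus strand, outside annotated exons) has its match 67 bases before the start. A match is a description of the letters and shows no binding.
LAMA3 first site: ggcacaggcTGACTCATGTGtgaagtttaa
LAMA3 second site: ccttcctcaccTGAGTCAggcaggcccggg
LAMB3 site: gtcagccactcTGACTCAttcactttgggc

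Libraries held between 17270180 and 17742519 counts, and 15950 genes passed the filter on low counts, all 9 genes among them. TFE3 itself stood at 131 and 128 CPM (counts scaled to 1 common library size with TMM factors) in the control libraries and at 70.1 and 66.9 CPM in the knockdown libraries (edgeR quasi-likelihood test, Benjamini-Hochberg adjusted p 5.6e-11), in the direction of the labels. The label of a renal epithelial line was checked against 12 markers, with mixed levels. PAX8, KRT8, KRT18, CDH6 and VIM had arm means of at least 78.9 CPM. CDH16, CDH1, KRT7 and EPCAM stood at 20.8, 5.31, 1.32 and 0.909 CPM in control. KRT19 had at most 2 counts in a library, and PAX2 and CA9 had 0 counts in all libraries. KRT18 and CDH6 fell (log2 fold changes -0.279 and -0.545, edgeR adjusted p 0.0019 and 6.0e-07), and the other 7 testable ones did not pass. Neither fall passed when genes with low counts were kept (0.0932 and 0.0815), KRT18 did not pass with either shTFE3 replicate left out (0.0806 and 0.0679), and VIM (log2 fold change 0.139, edgeR adjusted p 0.0545) passed upward by DESeq2 (0.0443) and limma-voom (0.0338). Of 15 markers of leukocytes, endothelium, fibroblasts, muscle and basal epithelium, 4 had 0 counts in all libraries, and PTPRC, KRT5, KRT14, TP63, VWF and CDH5 had at most 1 count in any. The 4 testable ones were detected: PDGFRB, COL1A1, ACTA2 and PECAM1 had control means of 11.4, 8.33, 8.1 and 2.99 CPM. PDGFRB, COL1A1 and ACTA2 thus stood above CDH1 and EPCAM. CD14, a leukocyte marker too low to be testable, went from 2 counts in each control library to 10 and 11 counts with shTFE3. The summed level of the 15 was 30.9 to 31.4 CPM in control and 29.1 to 33.3 CPM in knockdown. None of the 4 testable ones passed by edgeR, DESeq2 or limma-voom, and 1 (COL1A1, lower) had an unadjusted edgeR p under 0.05.

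In outline, the 5 receptor genes were all lower in the knockdown libraries, whereas the laminin chains split, 2 lower and 2 higher. As a description, the fit over all genes put 6 of the 9 genes past the adjusted p threshold of 0.05 downward, where 12.9% of all tested genes lay, and 2 upward, where 10.3% lay. In either direction this was 8 of 9, beside 23.3% of all tested genes; ITGB1 was the 1 that did not pass. The libraries of the arms did not overlap in CPM for any of the 9 genes, which also held for 60.3% of all tested genes. The rule chose these genes with the same counts known, so nothing is read from these counts. The median log2 fold change was -0.46 over the 5 receptor genes and -0.031 over the 4 laminin chains. It was 0.002 over all tested genes, whose quartiles were -0.176 and 0.166. ITGB1 (-0.107) lay between those quartiles. CD151 (-0.195), LAMA3 (-0.242) and LAMC1 (0.18) lay less far outside them than the remaining genes.

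**Figure D1:**
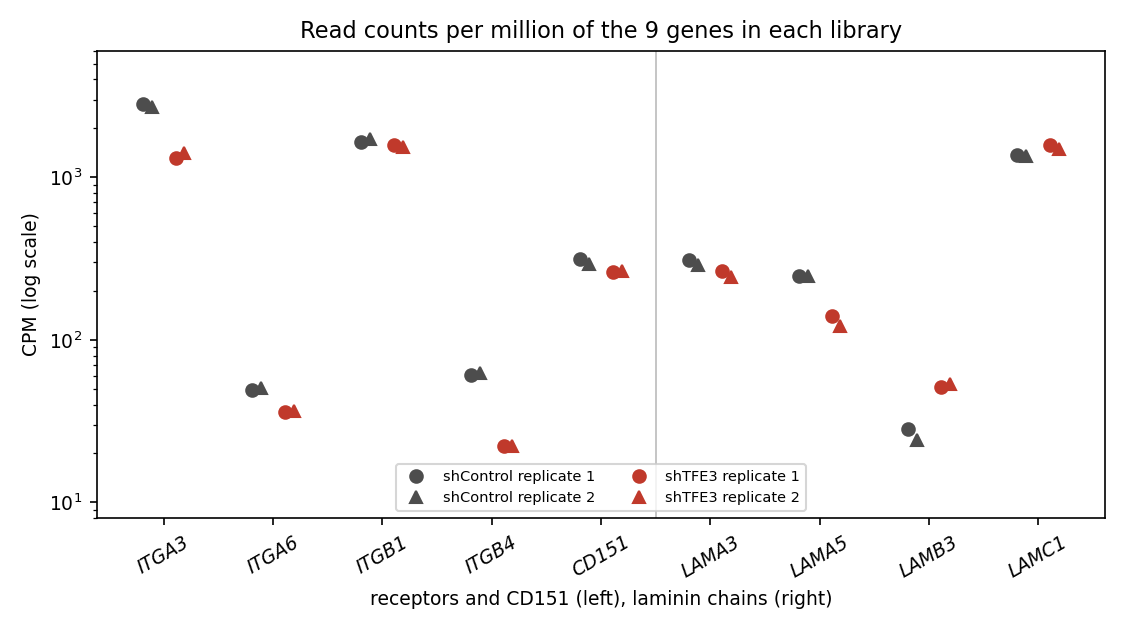
CPM of each of the 9 genes (log axis) in the 4 libraries, grey for shControl and red for shTFE3, circles for replicate 1 and triangles for replicate 2. ITGA3, ITGB4 and LAMA5 lie far below their control libraries in knockdown, LAMB3 lies above them, and ITGB1 differs little.

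Among the receptors, ITGB4 (ENSG00000132470, chromosome 17, 75721328 to 75757818, plus strand, GRCh38) showed the lowest ratio. It had 61.0 and 62.6 CPM in shControl and 22.2 and 22.2 CPM in shTFE3. Both knockdown libraries were thus well below both controls and almost identical to each other. In bulk RNA such as this, fewer cells with a transcript and less transcript per cell cannot be told apart. The knockdown mean was 35.9% of the control mean, a log2 fold change of -1.48 with a standard error (SE) of 0.078. By that value ITGB4 ranked 62nd from the lowest of the 15950 tested genes.

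ITGA3 (ENSG00000005884, chromosome 17, 50055968 to 50090481, plus strand), the alpha subunit of the α3β1 receptor for LM332 and LM511, had the highest CPM of the 9 genes in shControl. It held rank 15 by control CPM among all tested genes. Its levels were 2825 and 2700 CPM in shControl and 1322 and 1407 CPM in shTFE3, a knockdown mean of 49.4% of control (log2 fold change -1.02, SE 0.053). The gap between the arms was many times the gap between libraries of an arm.

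ITGA6 (ENSG00000091409, chromosome 2, 172427354 to 172506282, plus strand), the alpha subunit shared by α6β1 and α6β4, was far less abundant. It had 49.0 and 50.3 CPM in shControl and 35.8 and 36.3 CPM in shTFE3, 72.7% of control (log2 fold change -0.46, SE 0.074). The libraries of each arm lay close together, and the arms were apart.

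ITGB1 (ENSG00000150093, chromosome 10, 32900319 to 33005792, minus strand), the beta subunit common to many integrins, had 1645 and 1710 CPM in shControl against 1571 and 1544 CPM in shTFE3. The arms were apart by little more than the control libraries were from each other, and the log2 fold change was -0.107 (SE 0.051). A processed pseudogene copy, ITGB1P1, was given 156 to 192 counts per library, few beside the 27478 to 29134 counts of ITGB1, and reads shared between the copies cannot be told apart. ITGB1-DT, a noncoding gene on the other strand that is named as the divergent transcript of ITGB1 and was chosen after its values were seen, went from 335 and 344 counts with the control hairpin to 195 and 229 with shTFE3, and fell (log2 fold change -0.75, edgeR adjusted p 1.1e-05). It shares 42 exon bases with ITGB1.

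CD151 (ENSG00000177697, chromosome 11, 832843 to 839831, plus strand) stood at 313 and 292 CPM in shControl and at 262 and 266 CPM in shTFE3, 87.4% of control (log2 fold change -0.195, SE 0.056). The difference between the arms was modest, and the control libraries differed more than those of the knockdown. It was past the threshold with all libraries but not without shControl replicate 1 (-0.145), shTFE3 replicate 1 (-0.184) or shTFE3 replicate 2 (-0.206). Its exons share 257 bases, 6.53% of their length, with POLR2L on the opposite strand. POLR2L fell as well (1718 and 1493 counts against 1311 and 1377; log2 fold change -0.325, edgeR adjusted p 0.00112), and the strand setting of the counting is not given in the sources used here. The part of POLR2L reads in the CD151 value was not tested.

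Among the laminin chains, LAMA5 (ENSG00000130702, chromosome 20, 62307955 to 62367312, minus strand), the alpha chain of LM511, had the lowest ratio. Its level was 246 CPM in both control libraries and 140 and 122 CPM in the knockdown libraries, 53.2% of control (log2 fold change -0.91, SE 0.062). The knockdown libraries differed more from each other than the controls did, and both were far below them. ADRM1, which overlaps 244 exon bases of LAMA5 on the opposite strand, went the other way (1367 and 1397 counts against 1797 and 1904; log2 fold change 0.352, edgeR adjusted p 0.000173). The part of ADRM1 reads in the LAMA5 value was not tested.

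LAMB3 (ENSG00000196878, chromosome 1, 209614870 to 209652466, minus strand), the beta chain of LM332, was the least abundant of the 9 genes in control and was higher in knockdown. It had 28.5 and 24.2 CPM in shControl and 51.0 and 53.4 CPM in shTFE3, 198% of control (log2 fold change 0.99, SE 0.084). Both knockdown libraries lay well above both controls, and the log2 fold change lay between 0.871 without shControl replicate 2 and 1.11 without shControl replicate 1.

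LAMA3 (ENSG00000053747, chromosome 18, 23689443 to 23956222, plus strand), the alpha chain of the same trimer, was slightly lower, with 310 and 289 CPM in shControl and 264 and 242 CPM in shTFE3 (84.6% of control, log2 fold change -0.242, SE 0.059). LAMC1 (ENSG00000135862, chromosome 1, 183023460 to 183145592, plus strand), the gamma chain of LM511 and of most other laminins, was slightly higher. It had 1369 and 1346 CPM in shControl and 1579 and 1497 CPM in shTFE3 (113% of control, log2 fold change 0.18, SE 0.052). For LAMA3 the nearest libraries of the arms were about as far apart as libraries within an arm, and for LAMC1 somewhat farther. The log2 fold change of LAMA3 was -0.192 without shControl replicate 1 and -0.183 without shTFE3 replicate 2. That of LAMC1 was 0.191 without shControl replicate 1, 0.166 without shControl replicate 2 and 0.143 without shTFE3 replicate 1. Neither gene was past the threshold in each fit with 1 library left out, and nothing is read from those calls. With no filter on low counts CD151, LAMA3 and LAMC1 were not past the adjusted p threshold.

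A table of the authors' own comparison lists 546 genes, 152 as up and 394 as down, with no absolute log2 fold change below 0.585. It contains 4 of the 9 genes. The log2 fold changes in the authors' deposited table were -1.02 for ITGA3, -1.48 for ITGB4, -0.91 for LAMA5 and 0.99 for LAMB3. ITGA6, ITGB1, CD151, LAMA3 and LAMC1 are not in it.

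Levels of different genes were compared per length, as CPM per kilobase of the union of exons in GENCODE release 29. In shControl the order was ITGA3 (282 ± 9.03, SD, n = 2), ITGB1 (279 ± 7.65), LAMC1 (162 ± 1.93), CD151 (76.8 ± 3.84), LAMA3 (20.4 ± 1.02), LAMA5 (17.2), ITGB4 (9.14 ± 0.174), ITGA6 (7.60 ± 0.147) and LAMB3 (5.62 ± 0.65 CPM per kilobase). ITGA3 and ITGB1 overlapped there, and every other pair of neighbours was apart between the control libraries. In shTFE3 the order was ITGB1 (259 ± 3.13), LAMC1 (183 ± 6.95), ITGA3 (139 ± 6.17), CD151 (67.1 ± 0.603), LAMA3 (17.2 ± 1.04), LAMB3 (11.1 ± 0.365), LAMA5 (9.17 ± 0.873), ITGA6 (5.52 ± 0.051) and ITGB4 (3.28 CPM per kilobase), with all neighbours apart between the knockdown libraries. Over the 4 libraries together, 3 pairs of neighbours in the control order were free of overlap: ITGB1 and LAMC1, LAMC1 and CD151, and CD151 and LAMA3. With coding length in place of exon length, CD151 came before LAMC1 in both arms, ITGA3 before LAMC1 in shTFE3 and ITGA6 before ITGB4 in shControl.

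**Figure D2:**
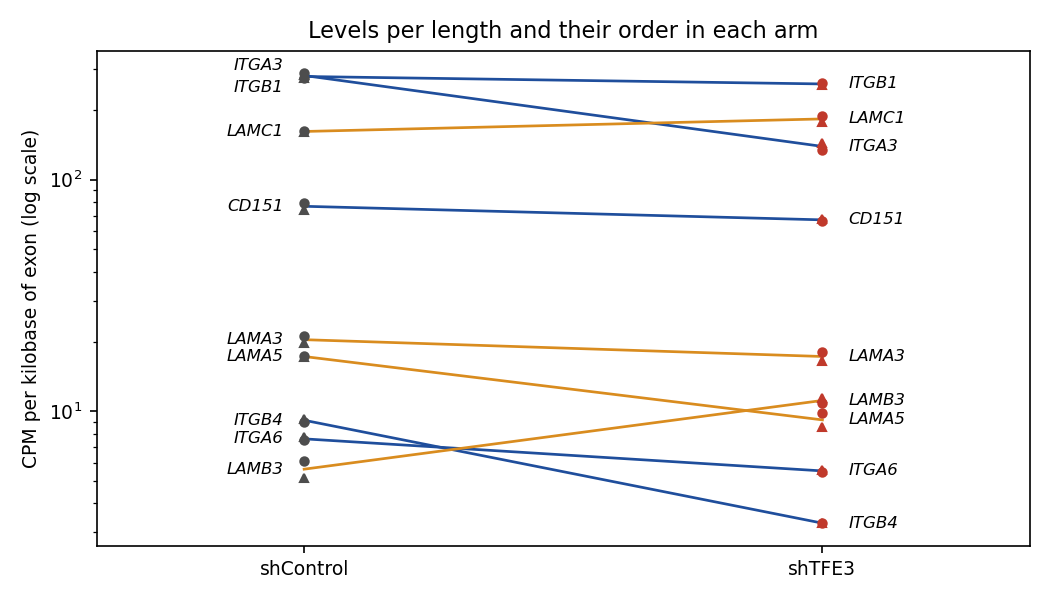
CPM per kilobase of exon (log axis) of the 9 genes in each library of shControl and shTFE3, with lines joining the arm means, blue for receptors and CD151 and orange for laminin chains. By exon length ITGA3 goes from rank 1 (overlapping ITGB1 in shControl) to rank 3, LAMB3 from rank 9 to rank 6, and ITGB4 from rank 7 to rank 9. By coding length ITGA3 goes from rank 1 to rank 2 and ITGB4 from rank 8 to rank 9.

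The balance between partners in a library followed from these levels. By exon length ITGA3 and ITGB1 were near equal in shControl (0.95 and 1.03 ITGB1 per ITGA3), and shTFE3 gave ratios of 1.94 and 1.79. By coding length ITGA3 lay above ITGB1 in both control libraries (means of 798 and 678 CPM per kilobase). In shTFE3 it lay below (394 and 629). For the hemidesmosomal pair, ITGA6 stood at 0.831 and 0.831 of ITGB4 in shControl and at 1.67 and 1.69 in shTFE3, so that by exon length the less abundant of the partners changed from ITGA6 to ITGB4. By coding length ITGB4 was the less abundant in both arms (ITGA6 at 14.2 and ITGB4 at 10.8 CPM per kilobase in shControl, 10.3 and 3.89 in shTFE3). LAMA3 stood at 1.22 and 1.14 of LAMA5 in shControl and at 1.84 and 1.93 in shTFE3. LAMA3 exceeded LAMB3 by factors of 3.47 and 3.81 in shControl and of 1.65 and 1.45 in shTFE3. In each of these 4 ratios the libraries of the arms did not overlap. The ratios restate levels of genes chosen with these counts known, so nothing further is read from this.

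The 4 integrin subunits and 3 of the laminin chains were also set against all subunits of their class. These shares use exon length only and depend on it, and shares by coding length were not worked out. ITGA3 made up 66.0% and 64.2% of the summed per-length level of 18 integrin alpha genes in shControl and 49.9% and 54.6% in shTFE3, while ITGA6 made up 1.72% and 1.79%, then 2.03% and 2.11%. Of the beta subunits ITGB1 held 60.0% and 62.2%, then 65.9% and 68.7%, and ITGB4 1.98% and 2.03%, then 0.828% and 0.878%. LAMA5 held 23.1% and 23.4% of the laminin alpha level in shControl and 16.9% and 15.6% in shTFE3. LAMA3, though lower in level, held a larger share in shTFE3 (28.2% and 26.7%, then 31.0% and 30.2%), and LAMB3 held 4.12% and 3.50% of the beta level, then 8.69% and 9.38%.

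**Figure D3:**
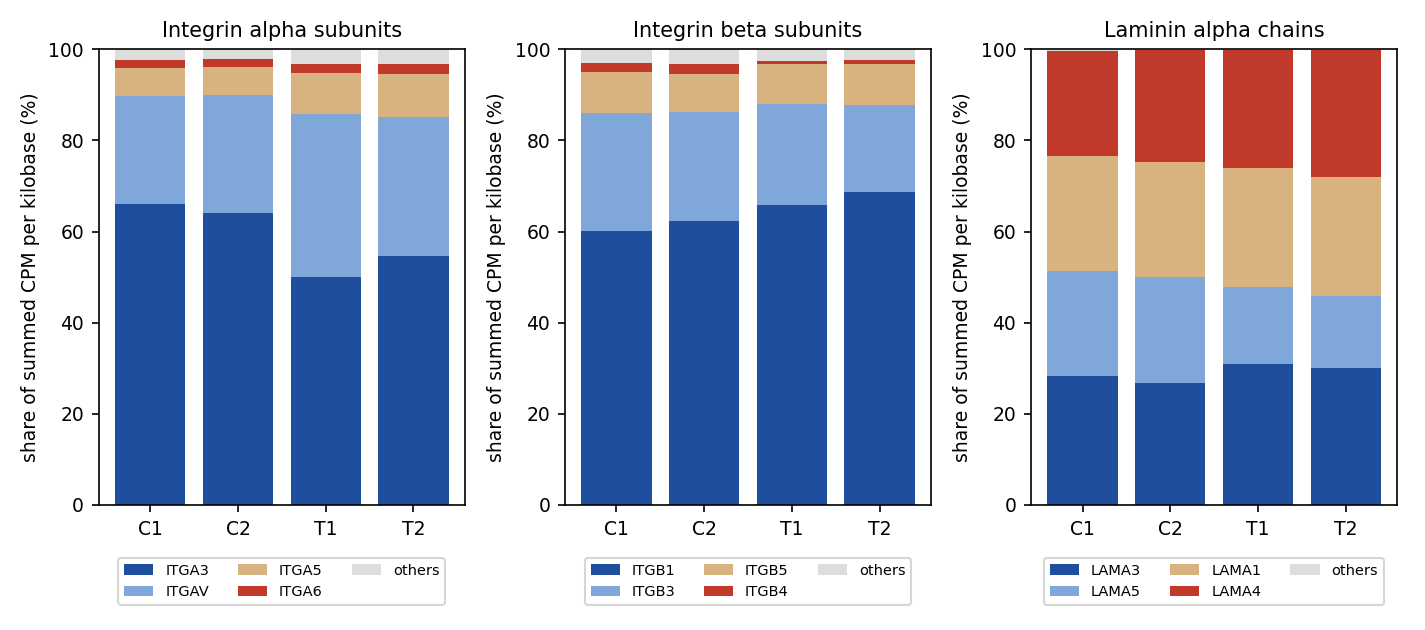
Share of each gene in the summed CPM per kilobase of exon of the integrin alpha, integrin beta and laminin alpha genes, 1 bar per library. C1 and C2 are shControl replicates 1 and 2, and T1 and T2 are shTFE3 replicates 1 and 2. ITGA3 takes a smaller share of the alpha subunits in both shTFE3 bars, ITGB4 becomes a thin band, and LAMA5 narrows.

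The remaining laminin chains and the lists below were tested in the fit over all genes. These lists were chosen with earlier results of these data known, so their counts are no independent evidence. Among all tested genes 12.9% fell and 10.3% rose, with a median log2 fold change of 0.002. Falls over all genes numbered 2059 in the main fit and 1203 by DESeq2, and were fewer than 2059 with any 1 library left out. A smaller count for a list under these alternatives is therefore not read as particular to that list. Of 8 chains 6 were testable: 4 fell, 1 rose and 1 did not pass, with a median log2 fold change of -0.386. LAMB1, the beta chain of LM511, fell from 1006 and 1020 CPM to 758 and 746 CPM (log2 fold change -0.43, SE 0.052, edgeR adjusted p 7.5e-07). Both partners of LAMC1 in LM511 were thus lower, while LAMC1 was slightly higher. LAMA1 and LAMA4 fell with log2 fold changes of -0.341 and -0.228 (edgeR adjusted p 4.9e-05 and 0.00393). Without shTFE3 replicate 1 or without shTFE3 replicate 2, 2 chains fell, and LAMA4 did not pass with either left out (adjusted p 0.0775 and 0.0752) or without shControl replicate 2 (0.0885). The chain that rose, LAMB2 (chosen after its values were seen), had 118 CPM in shControl and 136 CPM in shTFE3. The rise did not pass by DESeq2, or with shControl replicate 2 or either shTFE3 replicate left out.

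Of 22 other integrin subunits 15 were testable: 7 fell, 1 rose and 7 did not pass, with a median of -0.274. ITGB8, a partner of ITGAV, had 93.4 and 113 CPM in shControl and 70.0 and 52.2 CPM in shTFE3 (log2 fold change -0.75, edgeR adjusted p 1.6e-06); without shTFE3 replicate 2 it did not pass (-0.56, 0.0687), and 4 subunits fell. ITGB3, ITGB6 and ITGA4 fell with log2 fold changes of -0.516, -0.549 and -0.612 (edgeR adjusted p 3.9e-06, 1.9e-05 and 4.7e-05). ITGA7, a further laminin-binding alpha subunit, was barely expressed (1.70 and 1.35 CPM in shControl, 1.67 and 1.41 CPM in shTFE3) and did not pass (log2 fold change 0.012, edgeR adjusted p 0.985). The subunit that rose was ITGA2, a receptor for collagen and laminin (chosen after its values were seen), with 11.7 CPM in shControl and 14.7 CPM in shTFE3. The rise did not pass by DESeq2, with no filter, without shControl replicate 1 or without either shTFE3 replicate.

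Among relatives of CD151 and other laminin receptors, 7 of 16 testable genes fell, 1 rose and 8 did not pass (median -0.106). BCAM, a laminin alpha-5 receptor of the immunoglobulin family, fell from 35.2 and 35.7 CPM to 19.0 and 17.5 CPM (log2 fold change -0.96, SE 0.088, edgeR adjusted p 9.5e-09), and its ligand chain LAMA5 stood at 53.2% of control. The tetraspanins CD9 and CD63 fell with log2 fold changes of -0.625 and -0.338 (edgeR adjusted p 8.7e-05 and 2.6e-05), whereas CD82 rose from 56.8 and 56.5 CPM to 74.7 and 76.9 CPM (0.421, 3.5e-05). Without shTFE3 replicate 2, 3 of these genes fell and CD9 did not pass (0.0552); without shTFE3 replicate 1, 4 fell.

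Inside the cell, 6 of 22 testable hemidesmosome and integrin adaptor genes fell, 1 (TNS3, chosen after its values were seen) rose and 15 did not pass, with a median of -0.022. PARVA, KANK1, PTK2 (focal adhesion kinase) and ITGB1BP1, which binds the ITGB1 tail, fell with log2 fold changes of -0.321, -0.326, -0.265 and -0.29 (edgeR adjusted p 0.000276, 0.000399, 0.000666 and 0.00139). PLEC, the plectin gene, whose product ties ITGB4 to keratin, had 861 CPM in shControl and 948 CPM in shTFE3 and did not pass (log2 fold change 0.139, edgeR adjusted p 0.0684). DST, the gene of the hemidesmosomal protein BP230, had 273 and 255 CPM (-0.099, 0.212), and COL17A1 had at most 38 counts in a library; these 3 genes were chosen after their values were seen. Without shTFE3 replicate 1 or shTFE3 replicate 2, 3 adaptor genes fell, ITGB1BP1 did not pass (0.0612 and 0.0518), and none rose by edgeR with any 1 library left out.

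Of 16 testable genes of the rest of the basement membrane 11 fell, 1 rose and 4 did not pass, with a median of -0.415. Over all tested genes 12.9% fell and 10.3% rose, and this list too was chosen with earlier results known. COL4A2 and COL4A1, the chains of the main type IV collagen, fell, COL4A2 from 1214 and 1250 CPM to 765 and 741 CPM and COL4A1 from 768 and 738 CPM to 503 and 483 CPM (log2 fold changes -0.71 and -0.61, edgeR adjusted p 2.2e-10 and 4.0e-09). COL18A1 and AGRN (agrin, which binds the laminin coiled coil) fell with log2 fold changes of -0.602 and -0.474 (edgeR adjusted p 8.2e-08 and 4.9e-07). The gene that rose was COL7A1, of the anchoring fibrils that attach to LM332, with 365 and 427 CPM in the arms (chosen after its values were seen); it did not pass without shControl replicate 2 or without shTFE3 replicate 1.

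Of 11 testable laminin-processing proteases and inhibitors 7 fell and none rose by edgeR, DESeq2 or limma-voom; 1 (MMP2) was higher at an unadjusted edgeR p under 0.05. The median was -0.24. MMP7, a matrix protease, fell from 92.8 and 106 CPM to 43.5 and 48.2 CPM (log2 fold change -1.12, SE 0.075, edgeR adjusted p 4.4e-11). PLAU, the urokinase gene, and TIMP2, an inhibitor of matrix proteases, fell with log2 fold changes of -0.679 and -0.24 (edgeR adjusted p 2.3e-09 and 0.00107). By DESeq2 4 of these genes fell, beside 1203 falls over all genes against 2059 in the main fit. Fewer of these genes than in the main fit also fell without either shTFE3 replicate, as over all genes. TIMP2 did not pass without shControl replicate 2 (adjusted p 0.0514).

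**Figure D4:**
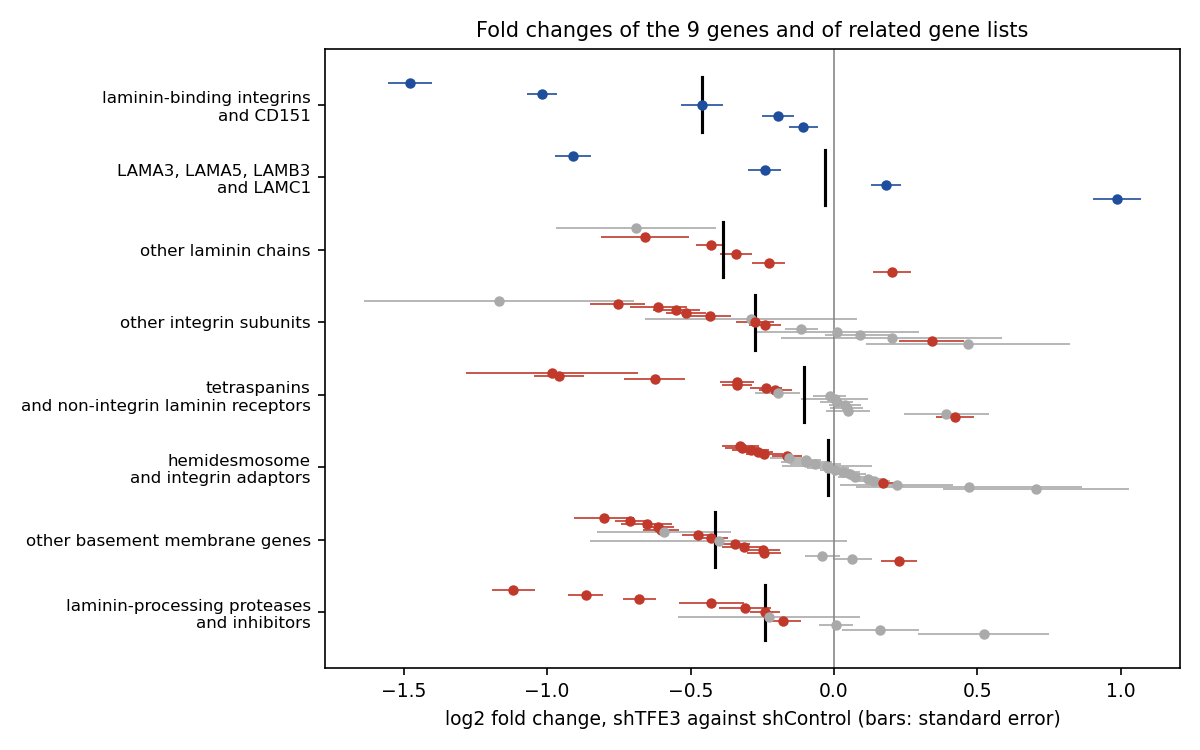
Log2 fold change of shTFE3 against shControl with its standard error for the 9 genes and the testable genes of the other 6 lists, with list medians as black lines. The 9 genes are blue whether or not they passed, and their p-values are not given. Genes of the other lists are red for an edgeR adjusted p under 0.05 and grey where they did not pass. LAMB3 at 0.99 and ITGB4 at -1.48 bound the values of the 9 genes, and the basement membrane list has a median of -0.415.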

How the data were processed

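The authors deposited raw read counts per Ensembl gene for 4 libraries of paired 150-base reads. The submitters' processing notes name hg38 as the build and, without versions, featureCounts, STAR, DESeq2 and Trim Galore as tools. For annotation and strand setting: not given in the sources used here. In the authors' deposited table of changed genes, mean normalized signal, log2 fold changes, a test score, p-values and gene length stand per gene; its log2 fold changes are printed as the authors' own.

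The 9 genes and the gene lists were chosen with earlier results of these data known. Counts were tested with edgeR 4.0.16 in R 4.3.3 (TMM, filterByExpr, quasi-likelihood test of the arm, Benjamini-Hochberg over 15950 genes, threshold 0.05). The procedure was also run on counts simulated from the spread fitted to these data. Such counts cannot show how it does on these libraries, and nothing is read from that run. SE is the absolute log2 fold change over the root of the test statistic. Alternatives used DESeq2 1.42.0, limma 3.58.1, other scalings and filters, a replicate block and each library left out. Named from each list were up to 4 called genes with the smallest p, with LAMB1, ITGA7 and TFE3; 2 genes that this covers are not reported here. Coordinates and lengths come from GENCODE release 29 (GRCh38), not necessarily the authors' annotation; motifs were chosen after the values were seen. Replicates differed by more than sampling noise (chi-square per degree of freedom, 2.14 for control and 3.63 for knockdown). A count of 3 was 0.167 to 0.176 CPM, a floor for counting error only.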

Additional observations from a re-analysis of the deposited data

How the results depend on the processing

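The log2 fold changes of the 9 genes kept their sign in all 99 values under 11 alternatives, with ranges such as -1.06 to -0.97 for ITGA3, -1.5 to -1.46 for ITGB4 and 0.871 to 1.11 for LAMB3. Falls and rises over all genes (2059 and 1650) numbered 280 and 104 with no filter on low counts, 1203 and 744 by DESeq2, 676 to 1507 and 367 to 1008 with 1 library left out, and 1990 and 1568 with a replicate block. The replicate numbers are shared only as labels, with a correlation of -0.096 between the deviations of the libraries numbered 1 over 10914 genes. With no filter, 1 of the 9 genes was past the threshold upward and 4 downward. Shares of all tested genes were worked out for the main fit only (12.9% down, 10.3% up). No share therefore stands beside the counts of the 9 genes under the alternatives, and nothing is read from those counts. With no filter, falls and rises were 1 and 0 among laminin chains, 1 and 0 among integrins and 2 and 0 among tetraspanins and receptors. They were 0 and 0 among adaptors, 3 and 0 in the basement membrane and 3 and 0 among proteases. By DESeq2, 0 laminin chains and 0 integrins rose and 4 proteases fell. A filter at 50 counts gave 2 rises among tetraspanins and 2 among adaptors, limma-voom 2 among adaptors, and the replicate block 2 among tetraspanins. With each library left out in turn, the falls ranged from 4 to 6 for the 9 genes, 2 to 4 for laminin chains, 4 to 7 for integrins, 3 to 6 for tetraspanins, 3 to 5 for adaptors, 8 to 12 for the basement membrane and 4 to 5 for proteases; the rises ranged from 1 to 2 for the 9 genes, 0 to 1 for laminin chains, integrins and the basement membrane, and stayed at 0 for adaptors. The cause of these shifts was not tested. Without the filter AGRN, COL18A1, CD9, CD82, ITGA4, ITGB1BP1, ITGB3, ITGB8, KANK1, LAMA1, LAMA4, PARVA, PTK2 and TIMP2 did not pass.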
